A study of Rattus norvegicus with 252 samples.

Results

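Calb1, Itpr1 and Pvalb, a set of 3 genes among the 32883 listed, were followed through the brain libraries of a rat model of Huntington disease. They were chosen by name, as calcium handling genes of the cerebellar Purkinje cell, on the condition that each had its highest mean in the cerebellum of wild-type (WT) rats. All 3 met that condition at 2, 6 and 12 months. In the files they carry the identifiers ENSRNOG00000007456 (Calb1), ENSRNOG00000007104 (Itpr1) and ENSRNOG00000006471 (Pvalb). The mutant rats were Long Evans rats heterozygous for the Q130 knock-in allele (labelled Q130 KI Het), in which the huntingtin gene carries a lengthened glutamine-coding repeat, and the others were WT Long Evans rats. No treatment is named for either genotype. Each of 60 rats, 30 of each genotype, gave cerebellum, striatum, cortex and hippocampus. This makes 240 study libraries, 10 for each of the 24 combinations of genotype, tissue and age, with 5 from either sex. A further 12 libraries repeated the striatum of males aged 2 or 6 months, 3 for each age and genotype. The labels put the 2- and 6-month libraries in batch 1, and the 12-month libraries with the repeats in batch 2.

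Purkinje cells are the output neurons of the cerebellar cortex, and calcium carries much of their synaptic signalling. Itpr1 encodes the inositol trisphosphate receptor of the endoplasmic reticulum, the channel through which stored calcium is released when metabotropic glutamate receptors are active. Calb1 (calbindin) and Pvalb (parvalbumin) encode soluble calcium-binding proteins that take calcium up in the cytosol and so shape the size and the decay of its transients. None of the genes is restricted to Purkinje cells: calbindin is also made by striatal projection neurons and by neurons of the hippocampus and cortex, and parvalbumin by fast-spiking inhibitory neurons of the forebrain and by interneurons of the cerebellum. RNA of whole tissue was measured, so fewer cells of a type and less RNA per cell cannot be told apart. Because the files pair no identifiers with gene names, other markers of Purkinje cells could not be looked up, and the cell type behind each value was not checked.

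Total counts ran from 25.3 to 50.8 M per library, with a median of 34.3 M. Levels are given as CPM, which are counts divided by the TMM-scaled library size in units of 1000000 counts, and comparisons between genes as TPM, which also divides by gene length. The lowest WT library held 770 counts of Pvalb outside the cerebellum, so that counting error was small for all 3 genes in WT rats. The lowest Q130 value was 12.5 CPM of Pvalb, in striatum of 12 months, male 3, where total counts were 31.2 M. In 9 study libraries, 8 of them Q130, the median correlation with other libraries of the same tissue was below 0.97, against 0.973 to 0.988 in the other 231. They are called the libraries that stand apart, and the main values that they move are also given without them. The library labelled Q130 hippocampus of 6 months, male 5, correlated best with striatum, and the library labelled Q130 striatum of 6 months, male 1, which came from the same animal, correlated best with hippocampus. The library labelled Q130 striatum of 12 months, female 2, also correlated best with hippocampus. In 4 other libraries genes of at least 5000 bases were low relative to genes of at most 1000 bases: on a log2 scale this long-minus-short measure was -0.60 and -1.30 in Q130 cerebellum of 2 months, males 1 and 2, -0.85 in Q130 hippocampus of 6 months, male 3, and -1.71 in WT cortex of 6 months, male 4. Its lowest value among the other 231 libraries was -0.65, in Q130 hippocampus of 2 months, female 5. For comparison, the transcripts of Itpr1 were 7725 to 9756 bases in effective length, that of Calb1 was 1705 and that of Pvalb 537. The last of the 9 came from 1 Q130 rat of 12 months, its cortex (male 4) and its striatum (male 3), with median correlations of 0.895 and 0.859.

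Promoter sequence was at hand for Itpr1 and Pvalb, and is shown because both genes were highest in the same tissue. Each stretch holds 300 bases, most of them before the gene's start, from RefSeq's GRCr8 annotation: chr4:142743190-142743489 on the plus strand for Itpr1 and chr7:111666240-111666539 on the minus strand for Pvalb. Capitals mark matches to a TATA box (TATANA), a GC box (GGGCGG) or an E-box (CANNTG), searched on both strands.
Itpr1: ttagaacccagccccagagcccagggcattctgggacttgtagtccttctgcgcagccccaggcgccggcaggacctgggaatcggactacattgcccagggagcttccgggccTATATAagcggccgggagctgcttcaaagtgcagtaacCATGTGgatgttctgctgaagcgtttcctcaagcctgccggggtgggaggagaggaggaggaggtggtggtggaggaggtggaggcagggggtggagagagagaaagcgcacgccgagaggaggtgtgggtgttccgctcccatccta
Pvalb: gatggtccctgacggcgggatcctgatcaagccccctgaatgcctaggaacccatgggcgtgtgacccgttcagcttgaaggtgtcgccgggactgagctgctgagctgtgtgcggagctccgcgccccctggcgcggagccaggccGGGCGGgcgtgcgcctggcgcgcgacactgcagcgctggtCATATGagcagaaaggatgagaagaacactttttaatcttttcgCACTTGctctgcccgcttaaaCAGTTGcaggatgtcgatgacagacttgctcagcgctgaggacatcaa

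The Itpr1 stretch held a TATA box match 136 bases before the start, on both strands because the matched letters are their own complement, and an E-box match 98 bases before it. The Pvalb stretch held a GC box match 103 bases before the start and E-box matches 63 and 19 bases before it and at base 3 after it. Of the 33469 rat promoters of this length, 26.5% held the TATA box, 33.1% the GC box and 72.1% the E-box letters. Neither stretch held the letters of a CCAAT box (CCAAT), a nuclear receptor element (AGGTCA), a MEF2 core or a cAMP response element (TGACGTCA). G and C made up 62% of the Itpr1 stretch and 60.7% of the Pvalb stretch, against a median of 51.7% over all promoters.

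All 3 genes stood far above their forebrain levels in the cerebellum of WT rats, which is the condition they were chosen by and is given without a test. Over the 30 WT cerebella, Calb1 averaged 4.95 times its level in the striatum, the tissue with the next highest mean. Itpr1 averaged 3.25 times its striatal level, and Pvalb 6.76 times its cortical level. The ranges did not overlap: Calb1 was at least 537 CPM in WT cerebellum and at most 153 CPM in any other WT tissue, Itpr1 at least 3408 and at most 1502 CPM, and Pvalb at least 442 and at most 176 CPM. The 176 CPM of Pvalb came from WT cortex of 6 months, male 4, one of the libraries that stand apart. How many of all genes have such a gap was not counted. Per length, Pvalb was the most abundant of the set in WT cerebellum at 2019 ± 118 TPM (SD, n = 30), followed by Itpr1 at 900 ± 83.5 TPM and Calb1 at 792 ± 41.6 TPM. By mean TPM they ranked 29, 96 and 127 among the 32883 genes. Mean TPM in WT striatum was 124 for Calb1 and 212 for Itpr1, and in WT cortex 252 for Pvalb. By TPM the ratios of cerebellum to these tissues were thus wider than the CPM ratios above.

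Q130 rats, which were not part of that condition, gave the same order of tissues at the top. With the animal as a block, cerebellum was higher than striatum, cortex and hippocampus for each gene at each age in edgeR's quasi-likelihood test, which is 27 of 27 tests. The background is high. Against striatum 74.9%, 77.7% and 76.1% of all genes were called at 2, 6 and 12 months, against cortex 72.3%, 72% and 70.5%, and against hippocampus 72.5%, 74.4% and 72.1%. Genes called higher in cerebellum made up 35.2% to 38.6%. Calb1 exceeded its striatal level by 2.29, 2.47 and 2.56 on the log2 scale at 2, 6 and 12 months, and its cortical level by 2.67, 2.78 and 2.86. Itpr1 had the smallest differences of the set, 1.58, 1.77 and 1.73 above striatum and 2.52, 2.64 and 2.50 above hippocampus. Pvalb had the widest differences from these tissues, 3.96, 3.88 and 3.60 above striatum and 3.69, 3.70 and 3.72 above hippocampus. The edgeR adjusted p-values of the 27 tests lay between 1.4e-26 and 2.6e-13. In no test did the Q130 cerebellar libraries overlap those of the other tissue, and the share of all genes without overlap was not counted.

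**Figure D1:**
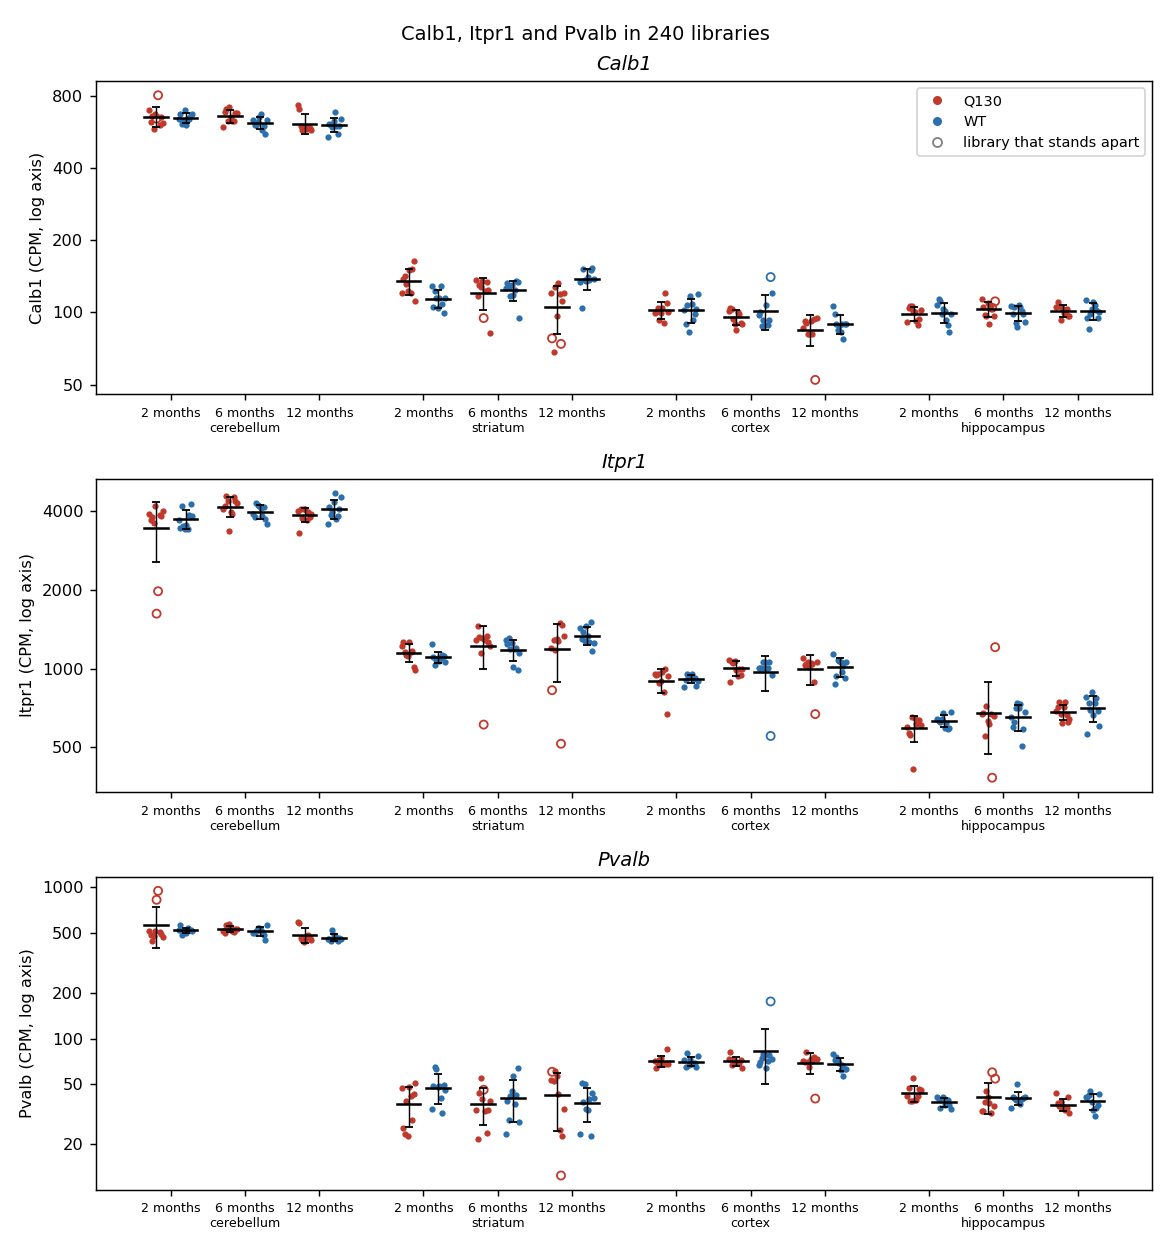
CPM (log axis) of Calb1, Itpr1 and Pvalb in 240 libraries by tissue and age, with Q130 in red left of WT in blue. Each point is 1 animal, bars are the mean and SD of 10 animals, and open circles are the 9 libraries that stand apart; each gene sits highest in the cerebellum.

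Outside the cerebellum the genes differed in order, and 20 of 27 tests among the other tissues were called, where 49.2% to 67% of all genes were. At 2, 6 and 12 months the shares of genes called were 61.7%, 60.1% and 63% for striatum against hippocampus, and 51.2%, 49.2% and 49.5% for hippocampus against cortex. In Q130 rats Calb1 was higher in striatum than in cortex at each age, by 0.38, 0.31 and 0.30 on the log2 scale at 2, 6 and 12 months (edgeR adjusted p = 3.44e-06, 0.000104 and 0.00622, where 67%, 66.1% and 64.8% of genes were called). Its level in Q130 striatum averaged 135, 121 and 105 CPM at those ages, and in Q130 cortex 102, 95.6 and 84.7 CPM. Striatum and hippocampus differed at 2 months (log2 difference 0.44, adjusted p = 3.85e-07) and 6 months (0.21, adjusted p = 0.00538), and at 12 months the difference of 0.03 missed the threshold with an interval of -0.16 to 0.23, as did 0.14 without the libraries that stand apart (adjusted p = 0.14). Between hippocampus and cortex the differences of -0.06 and 0.10 at 2 and 6 months missed the threshold, and that of 0.27 at 12 months passed it (adjusted p = 0.019).

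Itpr1 followed the order striatum, cortex, hippocampus below the cerebellum. Q130 libraries averaged 1149, 1223 and 1187 CPM in striatum at 2, 6 and 12 months, 900, 1002 and 996 CPM in cortex and 591, 679 and 682 CPM in hippocampus. Without the libraries that stand apart Q130 striatum averaged 1291 CPM at 6 months and 1315 CPM at 12 months. Hippocampus of 6 months then averaged 650 CPM and cortex of 12 months 1032 CPM. Striatum and hippocampus differed by 0.95, 0.87 and 0.77 on the log2 scale and hippocampus and cortex by -0.62, -0.59 and -0.54, all past the threshold (edgeR adjusted p from 3.22e-08 to 0.000287). Over all settings striatum and hippocampus differed by 0.866 to 0.996 at 6 months and 0.745 to 0.949 at 12 months. Hippocampus and cortex differed by -0.609 to -0.534 at 12 months. Striatum and cortex differed less, by 0.33, 0.28 and 0.23 (edgeR adjusted p = 0.016, 0.056 and 0.046), so that the difference missed the threshold at 6 months. The call at 12 months was lost with no filter on low counts (adjusted p = 0.0537) and by limma-voom (adjusted p = 0.107). Over all settings, the main one included, that difference ran from 0.20 to 0.34 and was called in 3 of 5. The lowest adjusted p by edgeR or limma-voom was 4.01e-08. Without the libraries that stand apart the difference at 6 months was 0.36 and passed (edgeR adjusted p = 1.06e-07). Those libraries included the one labelled striatum that had 611 CPM and a hippocampal profile.

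Pvalb was higher in cortex than in striatum or hippocampus. Q130 cortex averaged 71.01, 70.97 and 69.13 CPM at 2, 6 and 12 months, Q130 hippocampus 43.5, 41.1 and 36.7 CPM, and Q130 striatum 37.0, 36.9 and 42.1 CPM. The striatal level lay below the cortical one by 1.01, 0.98 and 0.78 on the log2 scale, and the hippocampal level by 0.73, 0.81 and 0.90, all past the threshold (edgeR adjusted p from 1.12e-08 to 5.89e-05). Striatum and hippocampus missed it at each age (differences of -0.27, -0.18 and 0.13, edgeR adjusted p = 0.0594, 0.184 and 0.491). Without the libraries that stand apart the differences were -0.27, -0.06 and 0.22, and that of 2 months passed (edgeR adjusted p = 0.0292). At 2 months only cerebellar libraries were left out of the joint fit, so the striatal and hippocampal libraries compared were the same. Pvalb varied widely between animals in the striatum: across the 10 rats of a group it ran from 22.8 to 50.7 CPM in Q130 and from 32.3 to 65.4 CPM in WT at 2 months, and from 12.5 to 60.7 CPM in Q130 and 22.8 to 51.3 CPM in WT at 12 months.

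Itpr1 also differed between tissues in which transcript was counted. The gene's counts were the sum of 5 transcripts in the deposited transcript table, found by matching sums in all 252 libraries to within 0.05 counts, while Calb1 and Pvalb each had 1 transcript (ENSRNOT00000010845 and ENSRNOT00000067635). In the cerebellum ENSRNOT00000041130 took 79.2 ± 3.72% of Itpr1 counts (SD, n = 60), with a range of 54.5% to 85.2%. In striatum it took 5.68 ± 2.31%, in cortex 9.49 ± 3.41% and in hippocampus 8.96 ± 4.71%. The main forebrain transcript was ENSRNOT00000064025, with 82.6 ± 4.03% in striatum, 71.0 ± 8.68% in cortex and 74.3 ± 6.94% in hippocampus, and it took 6.73 ± 2.11% in the cerebellum. The effective lengths of this pair, 9711 and 9756 bases, differ by 45 bases. Itpr1 messages are known to be alternatively spliced, and which exon sets this pair apart was not determined here.

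The difference was seen in every animal. The cerebellar share of ENSRNOT00000041130 exceeded the striatal, cortical and hippocampal shares by 73.5, 69.7 and 70.3 percentage points on average, and in 60 of 60 animals each time. The share of ENSRNOT00000064025 was lower in the cerebellum, with differences of -75.9, -64.3 and -67.5 points, again in 60 of 60 animals. Both shares are parts of 1 total, so the second result is not separate from the first. How many other genes with several transcripts differ in this way was not counted. A paired two-sided permutation test over animals gave p = 2e-05 each time (adjusted p = 2.4e-05), the smallest value its 100000 resamples can give. Among forebrain tissues the differences were small beside these, though the striatal share of ENSRNOT00000064025 was above the cortical one by 11.6 points, in 59 of 60 animals, by the same permutation test and p. Without the libraries that stand apart the 6 cerebellar differences kept their signs, with the first transcript higher by 70.3 to 74.1 points and the second at -76.3 to -65.3 points. These transcripts are called the main ones because they held the most Itpr1 counts over all libraries. Of the others, ENSRNOT00000082723 had mean shares of 5.21% to 8.48%, ENSRNOT00000043646 of 4.03% to 10.97% and ENSRNOT00000040255 of 0.601% to 1.53% over the tissues. In striatum, cortex and hippocampus the median shares of ENSRNOT00000043646 were 5.63%, 9.87% and 9.29%. Those of ENSRNOT00000041130 were lower there, at 5.18%, 8.91% and 7.94%.

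No difference between genotypes in the shares of the 2 main transcripts passed the test, and the other transcripts were not tested. In the 12 comparisons of Q130 with WT the shares of the 2 main transcripts differed by -3.73 to 4.41 points, and none of these 24 differences passed an exact permutation test within sex (lowest adjusted p = 0.398, 1 with an unadjusted p under 0.05). In the cerebellum of 12 months ENSRNOT00000041130 took 81.0 ± 1.08% of Itpr1 counts in Q130 rats and 80.0 ± 0.932% in WT rats (SD, n = 10 each), with an exact permutation p of 0.0298 before adjustment. The 16 comparisons of 6 with 2 months gave none past adjustment either. The lowest was in WT cerebellum, where ENSRNOT00000041130 took 79.8 ± 1.35% at 6 months and 77.9 ± 1.39% at 2 months (exact permutation p = 0.00265, adjusted p = 0.0819, n = 10 each).

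**Figure D2:**
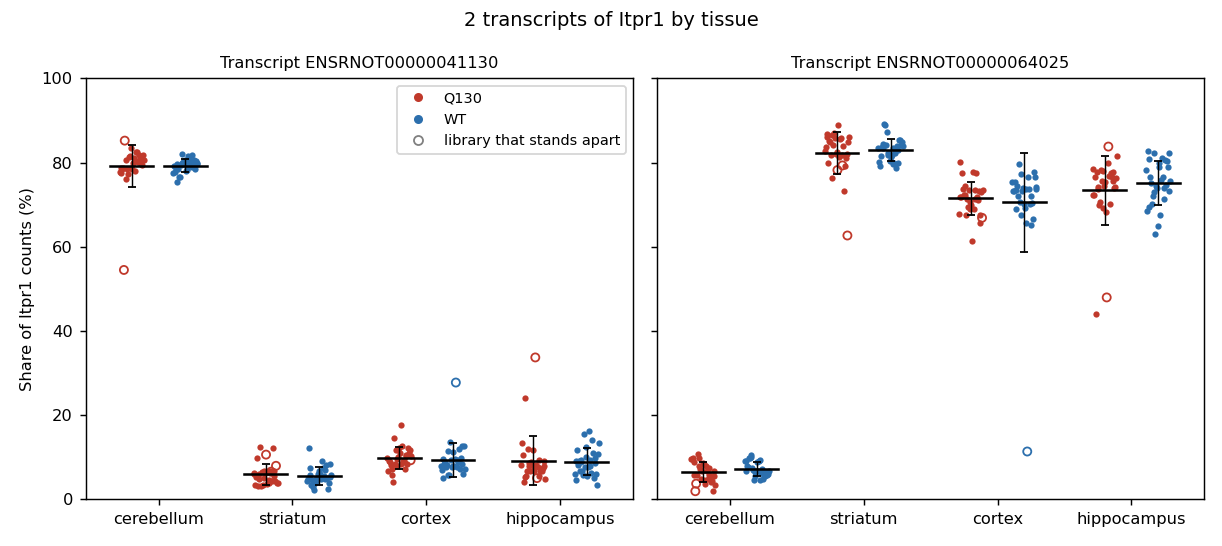
Share of Itpr1 counts, in percent, held by transcripts ENSRNOT00000041130 (left) and ENSRNOT00000064025 (right) in 4 tissues, with Q130 in red left of WT in blue and all ages together. Points are libraries, bars are the mean and SD of 30 libraries, and open circles stand apart; the first averages 79.2% in the cerebellum and under 10% elsewhere, and the second shows the reverse.

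The shares of the libraries low in long genes differed from the rest. In Q130 cerebellum of 2 months, male 1, ENSRNOT00000043646 took 43.4% of Itpr1 counts, against a cerebellar median of 3.27%, and in WT cortex of 6 months, male 4, it took 60.6%, against a cortical median of 9.87%. In Q130 hippocampus of 6 months, male 3, it took 17.3%, against a hippocampal median of 9.29%, and in Q130 cerebellum of 2 months, male 2, 9.92%. The main cerebellar transcript did not move one way in the cerebellar pair: ENSRNOT00000041130 took 54.5% in male 1 and 85.2% in male 2, against a cerebellar median of 79.7%. In the 2 libraries of 1 animal whose profiles went against their labels, the library labelled hippocampus had 1207 CPM of Itpr1, against a hippocampal median of 648 CPM, and ENSRNOT00000064025 took 83.8% of it. The library labelled striatum had 611 CPM, against a striatal median of 1220 CPM, and ENSRNOT00000064025 took 78.2%.

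In the cerebellum none of the 3 genes differed between Q130 and WT rats past the threshold at any age. At 2 months Q130 cerebella ranged from 580 to 802 CPM of Calb1 with a median of 648, and WT cerebella from 601 to 697 CPM with a median of 643. The calbindin levels of the genotypes overlapped almost fully, and the log2 fold change was 0.00 ± 0.05 (SE; edgeR adjusted p = 0.99). At 6 months Q130 ranged from 592 to 714 CPM with a median of 664, and WT from 552 to 671 CPM with a median of 610. Here 9 of 10 Q130 rats lay above the WT median and 5 above every WT rat, but the log2 fold change of 0.11 ± 0.04 missed the threshold (adjusted p = 0.24, with 0.0709% of genes called). At 12 months the medians were 589 CPM in Q130 and 602 CPM in WT, with ranges of 572 to 730 and 537 to 681 CPM, and the log2 fold change was 0.02 ± 0.05 (adjusted p = 0.83, with 1.48% of genes called).

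Itpr1, the release channel, was lowest in the Q130 cerebella of 2 months that stand apart. Q130 rats ranged from 1621 to 4181 CPM with a median of 3804 at that age, and WT rats from 3408 to 4269 CPM with a median of 3619. The values 1621 and 1975 CPM belonged to males 1 and 2, and the other 8 Q130 rats lay between 3596 and 4181 CPM. The log2 fold change was -0.13 ± 0.14 (edgeR adjusted p = 0.97, 0% of genes called), and without these libraries 0.05 ± 0.05 (adjusted p = 0.78). At 6 months Q130 ranged from 3356 to 4543 CPM with a median of 4231, and WT from 3573 to 4303 CPM with a median of 4002. At 12 months the medians were 3935 CPM in Q130 and 4023 CPM in WT, with ranges of 3307 to 4076 and 3582 to 4681 CPM. The fold changes, 0.07 ± 0.05 and -0.07 ± 0.05 on the log2 scale, were within the spread between animals (adjusted p = 0.57 and 0.45).

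Pvalb was highest in the same libraries in which Itpr1 was lowest. At 2 months Q130 cerebella ranged from 441 to 947 CPM with a median of 501, the top values of 947 and 827 CPM being those of males 2 and 1, and WT cerebella from 483 to 561 CPM with a median of 519. The log2 fold change of 0.10 ± 0.11 (edgeR adjusted p = 0.97) turned to -0.09 ± 0.04 (adjusted p = 0.56) without them. At 6 months the medians were 527 CPM in Q130 and 512 CPM in WT, and at 12 months 461 CPM in Q130 and 458 CPM in WT. Neither difference passed the test (log2 fold changes 0.05 ± 0.04 and 0.06 ± 0.05, adjusted p = 0.55 and 0.51). The 95% intervals of all 9 cerebellar estimates lay between -0.42 and 0.32.

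**Figure D3:**
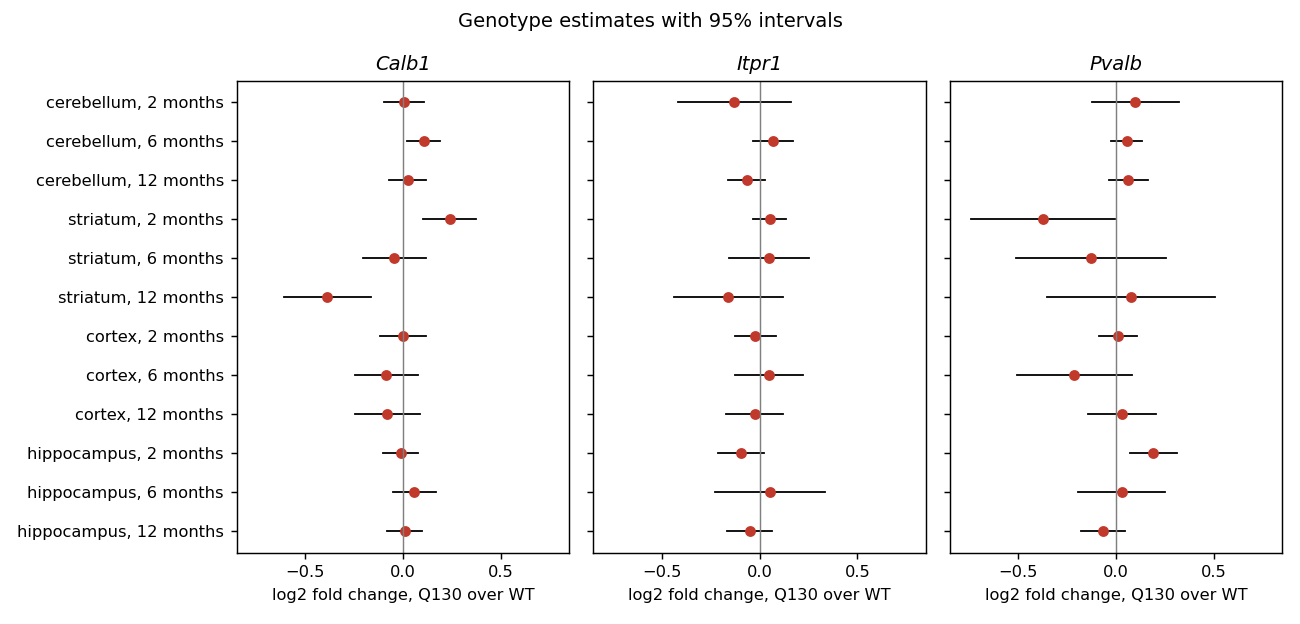
log2 fold change of Q130 over WT (points) with 95% intervals (lines) for Calb1, Itpr1 and Pvalb in 12 comparisons of tissue and age, 10 animals per genotype. Cerebellar estimates sit near 0, and Calb1 in striatum runs from 0.24 at 2 months to -0.39 at 12 months.

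In the forebrain too, no member passed the threshold in any single comparison of genotypes, which makes 0 of 36 tests over the 4 tissues by edgeR, with 5 at an unadjusted p under 0.05. By DESeq2 and by limma-voom Calb1 in striatum of 2 months was called, and no other member, where 6.32% of genes were called by DESeq2 and 2.6% by limma-voom. By edgeR 2.64% of all genes were called in striatum of 2 months, 1.48% and 0.0709% in cerebellum of 12 and 6 months, 0.00636% in cortex of 2 months and 0% in the other 8 comparisons. An unadjusted p under 0.05 by edgeR was reached by 252 to 3052 of the 15382 to 15812 genes tested in each comparison. In cortex the estimates lay between -0.21 and 0.05. The lowest, that of Pvalb at 6 months, compared 70.97 ± 4.71 CPM in Q130 with 82.9 ± 33.1 CPM in WT (SD, n = 10 each), where WT male 4, which stands apart, had 176 CPM. Without it the estimate was -0.03 ± 0.04 (edgeR adjusted p = 0.83). In hippocampus Pvalb at 2 months was 43.5 ± 5.27 CPM in Q130 and 38.1 ± 2.54 CPM in WT, with 9 of 10 Q130 rats above the WT median and 6 above every WT rat. Its log2 fold change of 0.19 ± 0.06 ranked 36 of the genes tested by p, but none of them passed adjustment (edgeR adjusted p = 0.709, 0% called). The highest Q130 value, 55.2 CPM, came from female 5, the rat with the long-minus-short value of -0.65, and its part in the result was not tested. In striatum Pvalb at 2 months was 37.0 ± 10.7 CPM in Q130 and 47.5 ± 10.6 CPM in WT (log2 fold change -0.37 ± 0.17, adjusted p = 0.25).

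In Q130 striatum the median of Calb1 lay above that of WT striatum at 2 months and below it at 12 months, and the difference between these effects passed the threshold. At 2 months Q130 striata ranged from 112 to 163 CPM with a median of 135, and WT striata from 99.7 to 129 CPM with a median of 115. Q130 lay above the WT median in 9 of 10 rats, and the log2 fold change was 0.24 ± 0.065 (edgeR adjusted p = 0.052, where 2.64% of genes were called). DESeq2 gave an adjusted p of 0.0073 and limma-voom 0.045, and a fit over the 60 striatal libraries gave 0.83, with 6.32%, 2.6% and 0.00618% of genes called. At 6 months Q130 ranged from 82.3 to 137 CPM with a median of 126, and WT from 94.98 to 135 CPM with a median of 127, and the ranges overlapped widely (-0.04 ± 0.08, adjusted p = 0.99).

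At 12 months Q130 striata ranged from 68.8 to 133 CPM with a median of 115, and WT striata from 105 to 153 CPM with a median of 137. All 10 Q130 rats lay below the WT median and 4 below every WT rat. The log2 fold change was -0.39 ± 0.11 (edgeR adjusted p = 0.50, 0% of genes called) in the 20 libraries of that age, and -0.39 ± 0.09 (adjusted p = 0.00455, 6.98% of genes called) in the fit over all 60 striatal libraries. Of the 4 lowest Q130 libraries, at 68.8, 74.0, 78.0 and 96.4 CPM, those at 74.0 (male 3) and 78.0 CPM (female 2) stand apart, and the second has a hippocampal profile. Without them the log2 fold change was -0.30 ± 0.09 (adjusted p = 0.27), and 8 of 8 Q130 rats lay below the WT median.

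The change of the Q130 effect between ages was itself tested. From 2 to 12 months it fell by 0.63 on the log2 scale, with a standard error of 0.13 and an interval of -0.88 to -0.37 (edgeR quasi-likelihood test of genotype by age, 60 striatal libraries, adjusted p = 0.019). Calb1 ranked 3 of 16181 genes by p, where 194 genes, or 1.2%, were called. Without the libraries that stand apart the difference was -0.54 ± 0.12 (adjusted p = 0.0155, 3.83% of genes called), and leaving out each of the 40 libraries of these ages in turn kept it between -0.68 and -0.59 with adjusted p from 0.0094 to 0.043. An estimate at least as large was found for 10.04% of the genes tested. The 12-month libraries lie in batch 2 and the 2-month ones in batch 1, while each Q130 effect is taken within its batch. Of the 12 prefixes shared by animal identifiers at 12 months, 0 held both genotypes, so prefix and genotype cannot be told apart there. Within batch 2, where males of 12 months can be set beside the repeat libraries of 2-month males, the difference was -0.33 ± 0.22 (adjusted p = 0.88, 0 genes called). Among males of the study libraries alone it was -0.65 ± 0.17 (adjusted p = 0.40, 0 genes called).

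The value within batch 2 differed from that of the study males mainly at 2 months, where the study males gave 0.30 ± 0.12. In the repeat libraries Calb1 averaged 133 ± 8.82 CPM in Q130 and 135 ± 31.3 CPM in WT at 2 months (SD, n = 3 each), and the fit over batch 2 males gave a log2 fold change of -0.02 ± 0.17 at that age. The first libraries of the same animals averaged 138 CPM in Q130 and 114 CPM in WT. The 12-month difference in batch 2 males was -0.35 ± 0.13 (edgeR adjusted p = 0.27). Across all 12 striata sequenced in both batches the first libraries differed from the repeat libraries by -0.12 ± 0.06 in Calb1, -0.04 ± 0.05 in Itpr1 and -0.02 ± 0.13 in Pvalb on the log2 scale, none past the threshold (edgeR adjusted p = 0.39, 0.81 and 0.98, with 3.87% of genes called). Which column is the repeat library was inferred from the column names. No other genotype-by-age test of the 24 called a member, and the share of genes called was 1.2% in that striatal comparison, 0.00629% in cerebellum (12 against 2 months) and 0% in the other 6. Without the libraries that stand apart 2.41% were called in cerebellum (12 against 2 months), 0.475% in striatum and 0.0125% in cerebellum (6 against 2 months), and still no other test called a member.

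**Figure D4:**
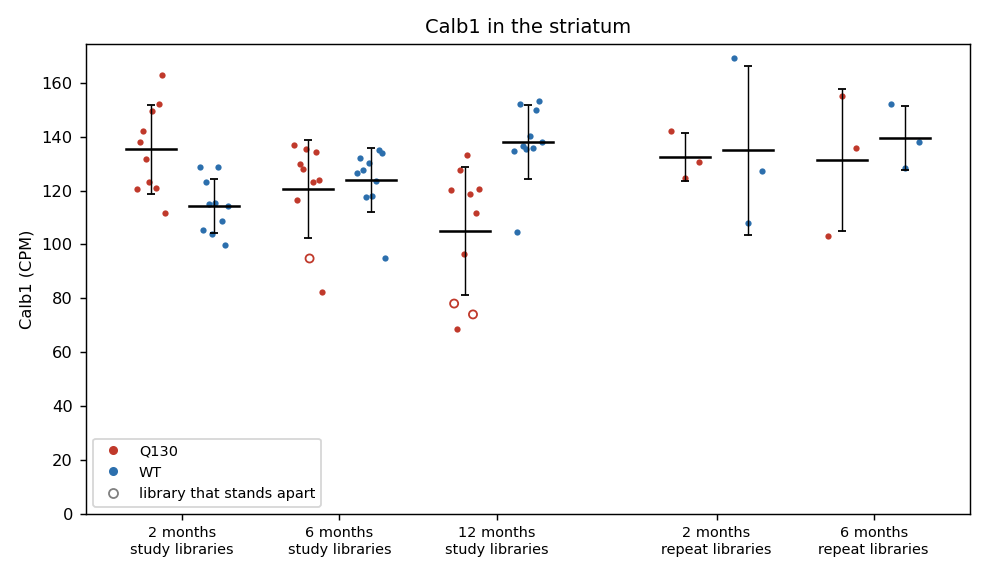
Calb1 in CPM in striatal libraries by age, with Q130 in red left of WT in blue and the repeat libraries of batch 2 on the right. Points are animals, bars are the mean and SD of 10 study or 3 repeat libraries, and open circles stand apart; Q130 sits above WT at 2 months, level at 6 months and below at 12 months, and level in the repeats of 2 months.

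Between 2 and 6 months, ages that share batch 1, none of the genes passed the threshold in 24 tests by edgeR, although many genes did, and 4 of the 24 had an unadjusted p under 0.05. The shares of all genes called in Q130 and WT rats were 6.63% and 19.1% in cerebellum, 7.59% and 16.9% in striatum, 8.74% and 3.54% in cortex, and 1.01% and 17.1% in hippocampus. An unadjusted p under 0.05 by edgeR was reached by 1893 to 5046 of the 15550 to 15785 genes tested in each comparison. Itpr1 was higher at 6 months in 8 of 8 comparisons, by 0.06 to 0.29 on the log2 scale. The highest, in Q130 cerebellum, was 0.10 ± 0.05 without males 1 and 2 of 2 months (edgeR adjusted p = 0.18, with 15.1% of genes called). Of the 14783 genes tested in all 8, 6.60% had a positive estimate in each. In Q130 cortex Itpr1 averaged 1002 ± 63.6 CPM at 6 months and 900 ± 95.8 CPM at 2 months (log2 fold change 0.15 ± 0.05, adjusted p = 0.082, n = 10 each, where 8.74% of genes were called by edgeR). In WT cortex the estimate was 0.09 ± 0.08 with all libraries, and without male 4 of 6 months, at 553 CPM, it was 0.16 and was called (adjusted p = 0.00079, with 10.6% of genes called). In Q130 striatum it was 0.10 ± 0.10, and without the library of hippocampal profile 0.18 and called (adjusted p = 0.012, with 18.1% of genes called).

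Calb1 and Pvalb had mixed signs between these ages, with 3 of 8 estimates above 0 for each. In WT cerebellum Calb1 averaged 613 ± 35.2 CPM at 6 months and 646 ± 29.1 CPM at 2 months (log2 fold change -0.09 ± 0.04, edgeR adjusted p = 0.097, with 19.1% of genes called). In Q130 cerebellum Pvalb averaged 529 ± 23.8 CPM at 6 months and 567.7 ± 172 CPM at 2 months. Its estimate of -0.08 ± 0.11 turned to 0.12 without males 1 and 2 of 2 months and was then called (edgeR adjusted p = 0.044, with 15.1% of genes called). Levels at 12 months were measured in the other batch and are given without a test: in WT cerebellum they were 604 ± 40.5 CPM for Calb1, 4067 ± 356 CPM for Itpr1 and 465 ± 23.6 CPM for Pvalb. Within batch 2, males of 12 months differed from repeat libraries of 2 months by -0.07 ± 0.11 in striatal Calb1, 0.07 ± 0.15 in Itpr1 and -0.32 ± 0.23 in Pvalb on the log2 scale (edgeR adjusted p = 0.73, 0.79 and 0.39, with 6.11% of genes called). Against repeat libraries of 6 months, where 9.65% of genes were called, no gene of the set passed either. Without the library of 12 months that stands apart (male 3), Calb1 differed from the repeat libraries of 2 months by -0.01 ± 0.09 and Itpr1 by 0.16 ± 0.07 (adjusted p = 0.078, with 22.6% of genes called). Itpr1 differed from the repeats of 6 months by 0.20 ± 0.07 and was called (adjusted p = 0.033, with 27.2% of genes called), against 0.10 ± 0.15 with that library.

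Males and females did not differ past the threshold for any member in any tissue by edgeR: the 12 log2 differences of males from females lay between -0.13 and 0.03, the lowest adjusted p was 0.26, and 1 had an unadjusted p under 0.05. Of all genes 1.84% were called in cerebellum, 0.599% in striatum, 0.552% in cortex and 0.479% in hippocampus. Per tissue, 1496 to 2882 of the 15901 to 16181 genes tested had an unadjusted p under 0.05 by edgeR. No genotype-by-sex estimate was called either (12 tests, none with an unadjusted p under 0.05, and 0% of genes called). Per tissue, 408 to 590 of the 15968 to 16242 genes tested had such an unadjusted p by edgeR.

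Within the cerebellum the genes did not move as 1 group from animal to animal. After removing the means of age, genotype and sex, Calb1 and Pvalb, the calcium buffers, correlated over the 60 libraries with Pearson's r = 0.62 and Spearman's rho = 0.65, and over the 58 without those that stand apart with r = 0.65 and rho = 0.63. Itpr1 and Pvalb ran opposite (r = -0.71, rho = -0.21), but over the 58 libraries r was -0.11, so the relation rests on the pair of libraries low in long genes. Calb1 and Itpr1 had r = -0.15 over 60 libraries and 0.14 over 58. These values share the depth and the RNA of a library and are given as descriptions.

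The long-minus-short measure moved with all 3. Over the 60 cerebella its correlation was r = 0.78 with Itpr1, -0.88 with Pvalb and -0.55 with Calb1, and over the 58 it was 0.63, -0.67 and -0.42. Leaving out the 2 libraries farthest from its median gave 0.76, -0.80 and -0.38. Its part in the differences above was not tested. By r over the 60 cerebella, Pvalb was the 326th nearest of 9785 genes to Calb1, while Calb1 was the 1607th nearest to Pvalb. The nearest genes had r of 0.89 with Calb1, 0.97 with Itpr1 and 0.92 with Pvalb. Over the 58 libraries Pvalb was the 74th nearest of 9788 to Calb1, and Calb1 the 156th nearest to Pvalb. The nearest genes then had r of 0.86, 0.92 and 0.79. Those genes carry no name in the files and are not named here.

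**Figure D5:**
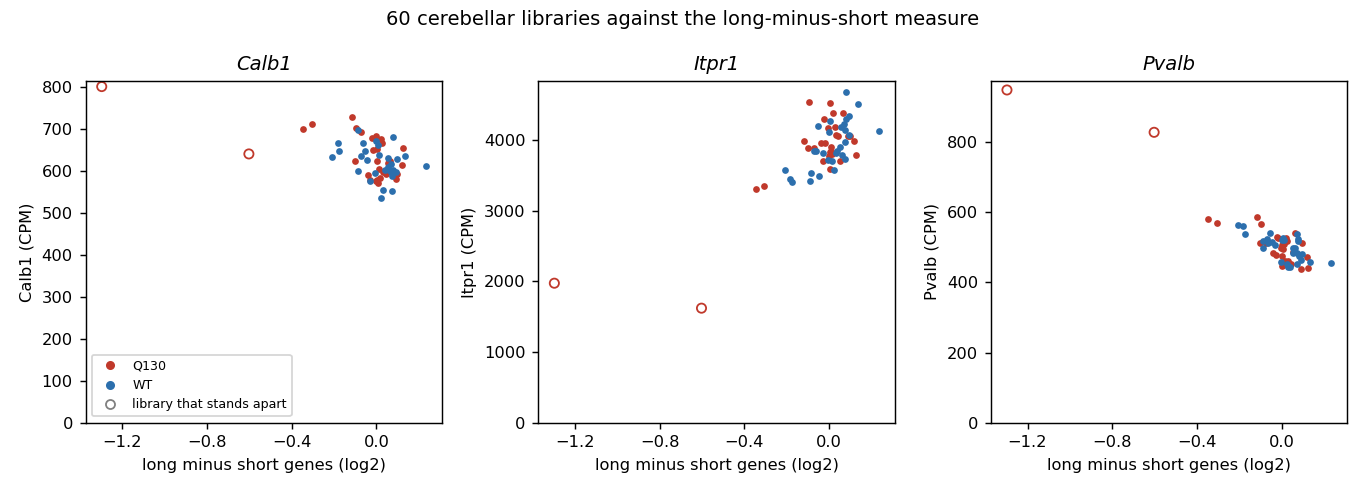
CPM of Calb1, Itpr1 and Pvalb in 60 cerebellar libraries against the log2 level of long genes minus that of short genes, with Q130 in red and WT in blue. Points are libraries and open circles are Q130 males 1 and 2 of 2 months, which have the lowest Itpr1, 1621 and 1975 CPM, and the highest Pvalb, 827 and 947 CPM.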

How the data were processed

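RNA of flash-frozen tissue was sequenced after enrichment of RNA subfractions, per the labels' protocols. The authors deposited estimated counts per gene and per transcript, per the file headers expected counts, which are not whole in 7.50% of values and were rounded here. A deposited gene table headed FPKM sums to 1000000 per library and was used as TPM, and the authors' transcript table of FPKM gave effective lengths. For the aligner, the counter and the build: not given in the sources used here. All columns were matched to samples, and which of a pair of columns is the repeat library was inferred from its name.

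Tests used edgeR 4.0.16 (filterByExpr, TMM, quasi-likelihood, R 4.3.3) over all genes, with Benjamini-Hochberg adjusted p under 0.05. DESeq2 1.42.0, limma 3.58.1 (voom) and other filters and scalings were alternatives. Genotype fits used the 20 libraries of a tissue and age. Tissue fits had the animal as a block. The fits were tested on simulated data, with genes changed 1.25-, 1.5- and 2-fold. The genotype fit in cerebellum of 2 months recovered 42%, 68% and 85% of them. The tissue fit in Q130 rats of 2 months recovered 46%, 78% and 88%, so modest changes can be missed. The labels name separate animals, so p-values measure the spread between animals taken as independent, which the labels do not state.

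The genes, lists and tests were chosen with earlier results of these data known. No identifier matched a symbol in the reference tables (0 of 32883), so the 121 symbols of the other lists were not tested, no further gene was named by likeness, and the knocked-in gene was not checked. The libraries that stand apart were defined after seeing the data. Both genotypes use the same replicate numbers, and no label says that a number pairs animals: in 0 of 12 comparisons were all pairs' correlations over 0.1. Animal identifiers share prefixes whose meaning is not stated. At 2 months 5 of 6 prefixes held both genotypes, and the prefix was tried as a block. At 6 months 1 of 12 did and at 12 months 0 of 12, so there prefix and genotype cannot be told apart.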

Additional observations from a re-analysis of the deposited data

Results flagged for a closer look

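In 30 of 120 tests, a test being 1 gene's CPM or 1 main Itpr1 transcript's share in 1 of the 24 groups, the highest or lowest of the 10 libraries lay far from the others by Dixon's criterion (gap over range above 0.466). Chance gives about 1 in 20. Of the 30, 14 lay in libraries that stand apart.

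In libraries that stand apart, the distant values in Q130 cerebellum of 2 months were 802 CPM of Calb1 (male 2) and a share of 54.5% for ENSRNOT00000041130 (male 1). WT cortex of 6 months, male 4, had 553 CPM of Itpr1, 176 CPM of Pvalb, 27.7% of ENSRNOT00000041130 and 11.3% of ENSRNOT00000064025. In Q130 hippocampus of 6 months, male 5 had 1207 CPM of Itpr1, and male 3 had 33.6% of ENSRNOT00000041130 and 47.9% of ENSRNOT00000064025. Q130 striatum of 6 months, male 1, had 611 CPM of Itpr1 and 10.54% of ENSRNOT00000041130. Q130 cortex of 12 months, male 4, had 52.4 CPM of Calb1, 670 CPM of Itpr1 and 40.2 CPM of Pvalb.

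Among the other libraries, Q130 hippocampus of 2 months, female 5, was distant in 4 measures, with 415 CPM of Itpr1, 55.2 CPM of Pvalb, 24.1% of ENSRNOT00000041130 and 44.0% of ENSRNOT00000064025. Its median correlation with its tissue, 0.973, was the lowest of those 231 libraries. For Pvalb the distant values were 84.99 CPM in Q130 cortex of 2 months (male 4), 81.7 CPM in Q130 cortex of 6 months (female 2), 50.3 CPM in WT hippocampus of 6 months (female 5) and 523 CPM in WT cerebellum of 12 months (female 4). For Itpr1 they were 1242 CPM in WT striatum of 2 months (female 1) and 3307 CPM in Q130 cerebellum of 12 months (female 2). For Calb1 they were 94.98 CPM in WT striatum of 6 months (male 5) and 105 CPM in WT striatum of 12 months (female 2). The share of ENSRNOT00000041130 was distant at 12.1% in WT striatum of 2 months (female 3), 17.5% in Q130 cortex of 6 months (male 2) and 12.1% in Q130 striatum of 12 months (female 4), and that of ENSRNOT00000064025 at 87.3% in WT striatum of 6 months (female 1).

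The effect of Q130 on striatal Calb1 differed between 12 and 2 months by -0.63 on the log2 scale (edgeR test of genotype by age, adjusted p = 0.0191).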

How the results depend on the processing

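Of 702 log2 values of the genes under alternative settings, 655 kept their direction and their side of the threshold, 32 changed sign, 11 newly passed the threshold and 4 no longer passed it, and causes of these changes were not tested. Without the libraries that stand apart, Q130 against WT turned to -0.026 (Calb1), 0.054 (Itpr1) and -0.092 (Pvalb) in cerebellum of 2 months, to -0.020 and 0.027 for Itpr1 in cortex of 6 and 12 months, and to -0.016 (Itpr1) and -0.13 (Pvalb) in hippocampus of 6 months. Genotype by age turned to 0.15 and 0.16 (cerebellar Pvalb, 6 and 12 against 2 months), -0.12 (cerebellar Itpr1, 12 against 2), 0.043 (cortical Itpr1, 12 against 2) and 0.077 (striatal Itpr1, 6 against 2, also 0.000778 with DESeq2 size factors). Males against females turned to 0.025 (Itpr1) and -0.034 (Pvalb) in cerebellum and -0.0061 (Itpr1) in hippocampus, and genotype by sex to 0.013 (Itpr1) and -0.031 (Pvalb) in cerebellum and 0.10 (Pvalb) in cortex. Between 6 and 2 months Pvalb turned to 0.12 in Q130 cerebellum and -0.014 in Q130 striatum, and Itpr1 passed at 0.16 in WT cortex, 0.18 in Q130 striatum and, for 12 against 6 months in batch 2 males, 0.20. Transcript shares turned to 0.346 (ENSRNOT00000041130, cerebellum of 2 months), -1.49 and 0.727 points (ENSRNOT00000041130 and ENSRNOT00000064025, hippocampus of 6 months), -1.65 (ENSRNOT00000064025, cortex of 6 months) and -1.53 (ENSRNOT00000041130, 6 minus 2 months, Q130 hippocampus). Striatum against hippocampus passed for Pvalb in Q130 of 2 months (-0.27, and -0.28 by limma-voom), and striatum against cortex for Itpr1 at 6 months (0.36, and 0.29 with DESeq2 size factors), while at 12 months the last no longer passed with no filter (0.24) or by limma-voom (0.20).

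Striatal Calb1 of 2 months passed by DESeq2 (0.24), limma-voom (0.24) and with low counts filtered by genotype group (0.24), and was -0.016 in batch 2 males. Striatal Calb1 of 12 months passed in the fit over 60 libraries (-0.39). Its genotype-by-age value was -0.33 in batch 2 males and -0.65 in study males, neither past the threshold. Pvalb in striatum of 12 months turned to -0.38 in batch 2 males and -0.39 in study males, and its genotype by age to -0.30 and -0.35. Cortical Calb1 of 2 months turned to 0.00208 by limma-voom and 0.00335 with the replicate block, and Pvalb between 6 and 2 months in Q130 cortex to 0.000280 with DESeq2 size factors and 0.00125 by limma-voom. With the replicate block striatal Calb1 of 2 months was 0.24 (adjusted p = 0.125), and the block changed no call of a gene. With the prefix of the animal identifiers as a block, added after seeing the data, Calb1 turned to -0.0057 in cerebellum and 0.016 in hippocampus of 2 months, and no call changed (striatal Calb1 0.23, adjusted p = 0.058). Of 120 same-numbered pairs 20 had a correlation over 0.1 (range -0.238 to 0.570). From TPM the WT log2 ratios of cerebellum over the next tissue were 2.67 (Calb1), 2.09 (Itpr1) and 3.002 (Pvalb), each wider than from CPM.

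Leaving out each library in turn gave -0.026 to 0.025, 0.088 to 0.12 and -0.0057 to 0.046 for cerebellar Calb1 at 2, 6 and 12 months, -0.17 to -0.04, 0.05 to 0.10 and -0.08 to -0.04 for Itpr1, and 0.01 to 0.13, 0.03 to 0.07 and 0.03 to 0.08 for Pvalb. In striatum it gave 0.21 to 0.27 (2 months, 5 of 20 past the threshold) and -0.44 to -0.34 (12 months) for Calb1, 0.03 to 0.07 and -0.20 to -0.08 for Itpr1, and -0.44 to -0.31 and -0.019 to 0.19 for Pvalb. Counts of all genes called moved by over 1.5 times in 42 of 234 values.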
